A study of Mus musculus with 14 samples.

Results

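The genes of the TGF-β signal were followed at their promoters in the H3K4me3 peak lists of LSK cells from mice on HFD or LFD. The set was given by name and holds 10 of the 21440 protein-coding genes with a placed gene start. It consists of the ligand Tgfb1, the receptors Tgfbr1 and Tgfbr2, the activating SMADs Smad1, Smad2, Smad3, Smad4 and Smad5, and the inhibitory SMADs Smad6 and Smad7. All 10 carried an H3K4me3 peak within 1 kb of the start in every HFD-LSK list. The receptor Tgfbr1 and the receptor-activated Smad2 stood nearest the top of the lists, and the inhibitory Smad7 carried the longest single peak. Neither the place of a gene in the list nor the width of its peak separated the diets at any of the 5 genes called in all 7 lists.

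TGF-β is a secreted factor that holds hematopoietic stem cells in quiescence and restrains myeloid proliferation. The ligand binds the type II receptor TGFBR2, which recruits and phosphorylates the type I receptor TGFBR1. TGFBR1 phosphorylates SMAD2 and SMAD3, whereas receptors of the bone morphogenetic protein branch phosphorylate SMAD1 and SMAD5. Each of these joins the common partner SMAD4 and enters the nucleus. SMAD6 and SMAD7 are induced by the pathway and block it at the receptor. H3K4me3, trimethylation of lysine 4 of histone H3, marks the starts of active and poised genes and does not by itself measure transcription.

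LSK cells (Lin-Sca1+cKit+) are the BM population that holds hematopoietic stem cells and early progenitors. They came from male C57BL/6J mice that were 3 to 4 weeks old when feeding began and were fed for 16 to 20 weeks. HFD gave 60% of kcal from fat in 3 libraries (HFD-LSK), and LFD gave 10% in 4 libraries (LFD-LSK). Each library was made by CUT&Tag, in which an antibody tethers a transposase to the marked chromatin, from 10000 sorted cells. The labels also call the assay CUT&RUN and ChIP. They do not say whether a library is 1 mouse or a pool, so p-values measure only the spread between these libraries.

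The lists held 9186 to 13094 peaks in HFD-LSK and 6921 to 10572 in LFD-LSK, with LFD-LSK replicates 4 and 1 the shortest. Their median peak width ran from 525 to 1198 bp and the median number of fragments at a summit, recovered from the deposited values, from 15 to 48. HFD-LSK replicate 3 stood apart in its background. Of its summits 62.2% had a local background over 0.5 fragments, against 0.838% to 23.0% in the other lists. Backgrounds here and below are on the scale of the control library, whereas summit fragments are not. The scale factor ran from 0.0958 to 0.913, highest in HFD-LSK replicate 3, so a given background is not the same amount in each list. Of 12 stem and progenitor markers, 5 were called in all 7 lists (Kit, Cd34, Gata2, Meis1 and Mecom), whereas Ly6a, which encodes the Sca1 used in the sort, and Lmo2 had no peak at the start used here. None of the 12 B cell, T cell and mature myeloid markers had a peak in any list. The erythroid factor Klf1 was called in 5 lists, and of 4 markers of non-blood cells Epcam was called in 4.

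The promoters are shown because the mark sits over them and because SMAD proteins can themselves bind promoter DNA. RefSeq entries (GRCm38.p6) matched 7 of the 10 genes, all but Smad2, Smad4 and Smad7. The 250 bases before the start, read 5′ to 3′ along the gene, are printed for 6: the ligand, both receptors, the activating Smad3 and Smad5, which differ most in their place in the lists among the activating SMADs with an entry, and the inhibitory Smad6. Capitals mark CAGAC or its reverse complement GTCTG, the short SMAD-binding element, and GGCGCC, a GC-rich element that SMAD proteins also bind. The windows are chr7:25686752-25687001 (plus strand) for Tgfb1, chr4:47352972-47353221 (plus) for Tgfbr1, chr9:116175364-116175613 (minus) for Tgfbr2, chr9:63757995-63758244 (minus) for Smad3, chr13:56702760-56703009 (plus) for Smad5 and chr9:64022060-64022309 (minus) for Smad6, whose entry starts 26 bases inside the gene bound used elsewhere.
Tgfb1: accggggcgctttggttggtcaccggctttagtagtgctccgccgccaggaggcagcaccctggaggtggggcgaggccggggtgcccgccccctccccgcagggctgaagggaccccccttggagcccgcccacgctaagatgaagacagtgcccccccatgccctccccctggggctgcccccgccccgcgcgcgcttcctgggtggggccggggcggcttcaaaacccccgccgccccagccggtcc
Tgfbr1: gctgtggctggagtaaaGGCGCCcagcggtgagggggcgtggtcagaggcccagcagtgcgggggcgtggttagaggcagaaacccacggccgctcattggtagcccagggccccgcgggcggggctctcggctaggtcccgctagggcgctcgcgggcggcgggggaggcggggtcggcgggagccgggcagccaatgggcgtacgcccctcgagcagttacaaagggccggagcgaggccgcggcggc
Tgfbr2: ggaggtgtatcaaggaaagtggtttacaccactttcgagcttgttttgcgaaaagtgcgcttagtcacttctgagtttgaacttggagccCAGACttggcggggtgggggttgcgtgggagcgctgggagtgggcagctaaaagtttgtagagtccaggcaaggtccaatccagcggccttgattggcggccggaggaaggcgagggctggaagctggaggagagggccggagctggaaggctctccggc
Smad3: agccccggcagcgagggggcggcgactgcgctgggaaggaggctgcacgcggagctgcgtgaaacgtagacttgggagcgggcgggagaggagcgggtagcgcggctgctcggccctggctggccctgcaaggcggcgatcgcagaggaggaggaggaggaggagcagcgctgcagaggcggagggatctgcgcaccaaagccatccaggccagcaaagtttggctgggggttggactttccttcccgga
Smad5: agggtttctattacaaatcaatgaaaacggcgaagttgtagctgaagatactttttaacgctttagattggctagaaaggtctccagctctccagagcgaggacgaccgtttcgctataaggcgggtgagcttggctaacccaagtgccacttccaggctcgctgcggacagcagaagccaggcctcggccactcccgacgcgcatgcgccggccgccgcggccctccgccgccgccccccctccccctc
Smad6: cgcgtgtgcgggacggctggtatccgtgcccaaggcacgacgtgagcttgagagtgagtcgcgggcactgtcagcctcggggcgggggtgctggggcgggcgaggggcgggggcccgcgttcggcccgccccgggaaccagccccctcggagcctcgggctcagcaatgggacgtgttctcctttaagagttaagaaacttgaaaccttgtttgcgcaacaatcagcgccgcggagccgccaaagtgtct

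The promoters were rich in CG dinucleotides, the composition at which H3K4me3 is usually placed. The 7 windows held 29 in Tgfbr1, 27 in Smad6, 25 in Smad1, 22 in each of Smad3 and Smad5, 21 in Tgfb1 and 12 in Tgfbr2. Over 32851 promoter windows of the same length the median was 6 and the upper quartile 16, so Tgfbr2 alone fell below that quartile. GC content ran from 58.4% in Tgfbr2 to 75.2% in Tgfb1, against a median of 52.4% over all windows. Both strands were searched for 5 motifs, which can overlap one another by a few bases. CAGAC was found in 1 of the 7 (Tgfbr2, 1 copy), and 42.2% of all windows hold it. GGCGCC was found in 1 (Tgfbr1, 1 copy), against 9.59% of all windows. GGGCGG, the core of the GC box, was found in 6 of the 7, with 5 copies in Tgfb1 and 4 in Smad6, against 32.7% of all windows. CCAAT was found in 4 of 7 (Tgfbr1, Tgfbr2, Smad1 and Smad5), against 33.8%, and TATAAA in 0 of 7, against 12.4%.

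A gene counted as called in a list when a peak touched the window of 1 kb on either side of its start. The 10 genes were called 65 times out of 70 possible, with 30 of 30 in HFD-LSK and 35 of 40 in LFD-LSK. The share of lists with a call was higher in HFD-LSK at 5 of the 10 (50%) and higher in LFD-LSK at 0. Over the 10997 genes called in any list it was higher in HFD-LSK at 5545 (50.4%) and higher in LFD-LSK at 1120. Fuller calling in HFD-LSK was thus not particular to the set. LFD-LSK replicate 4 called 28.5% of protein-coding genes, against 32.8% to 49.2% in the other lists. All 5 missing calls (Tgfbr2, Smad3, Smad4, Smad5 and Smad6) fell in LFD-LSK replicate 4, the shortest list. The fewest fragments at a called summit were 9 in that list and 4 to 21 over the 7 lists. LFD-LSK replicate 1, with 21, called all 10 genes. Mean coverage, inferred from the same values, was 0.0891 in LFD-LSK replicate 4, the lowest of the 7 lists, and 0.214 in LFD-LSK replicate 1. The 2 floors are therefore not on the same footing, and why the calls are missing was not tested. LSK cells are a mixture, and a peak in fewer cells cannot be told apart from less of the mark per cell. Without LFD-LSK replicate 4 all 10 genes were called in every list. Tgfb1, Tgfbr1, Smad1, Smad2 and Smad7 were called in all 7 lists, 5 of 10 genes compared with 20.2% of protein-coding genes. Each of the 10 was called in at least 1 list, against 51.3% of protein-coding genes. The pattern of the other 5 genes, called in every list but LFD-LSK replicate 4, was shared by 13.7% of the genes called at all.

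By role, the ligand had 3 of 3 calls in HFD-LSK and 4 of 4 in LFD-LSK. The receptors had 6 of 6 and 7 of 8, the activating SMADs 15 of 15 and 17 of 20, and the inhibitory SMADs 6 of 6 and 7 of 8. None of the 10 had a call in every HFD-LSK list with none in LFD-LSK, the pattern of 0.3% of the 10997 genes called in any list, or the reverse, the pattern of 0%. Fisher's exact test on the calls of the diets gave p = 1 for each of the 10 genes (two-sided). With 6 or 7 of the 7 lists called the test can give no other value, so it could not show a diet difference at these genes.

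**Figure D1:**
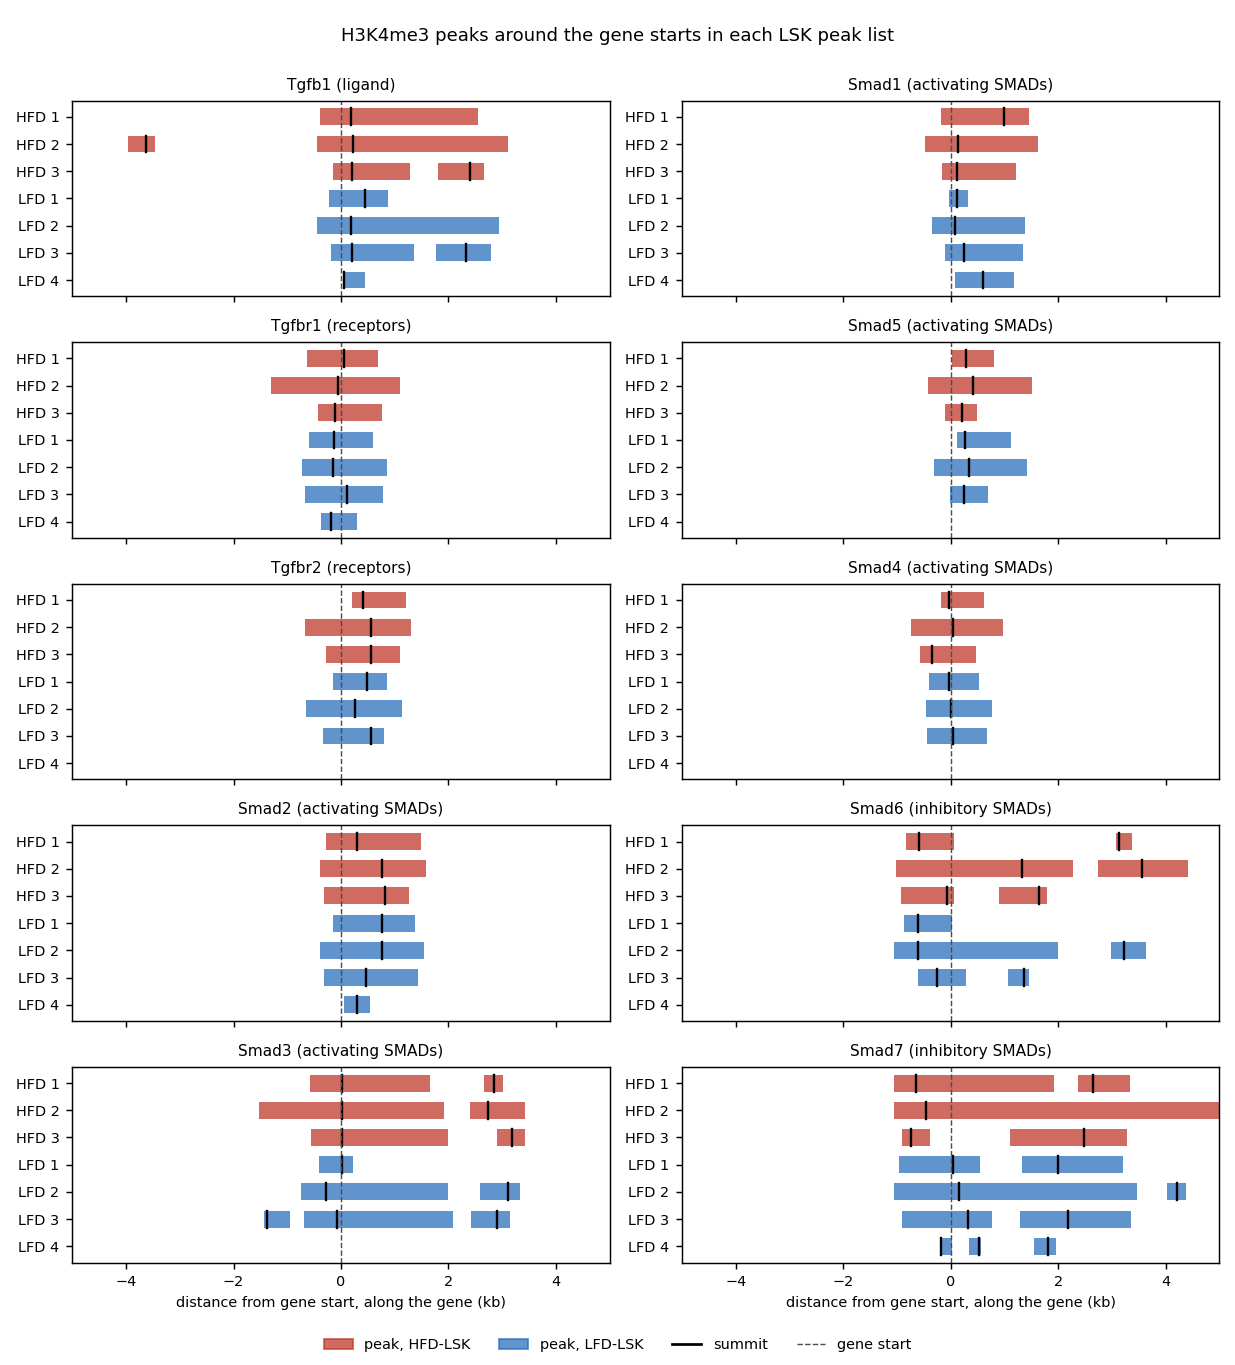
Peaks within 5 kb of each gene start (x axis, distance along the gene in kb) in the 7 lists (rows; red, HFD-LSK; blue, LFD-LSK), with summits as black lines. The 5 empty rows are all LFD-LSK replicate 4, and the peaks of Smad6 and Smad7 reach farthest upstream by their medians (892 and 968 bp). A peak of Smad7 in HFD-LSK replicate 2 runs past the right edge.

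The ligand gene Tgfb1 (chr7:25687002-25705077, plus strand) had a peak that began close to its start and ran into the gene. Its width was 2943, 3552 and 1431 bp in HFD-LSK replicates 1 to 3 and 1090, 3396, 1554 and 387 bp in LFD-LSK replicates 1 to 4. The narrowest was in LFD-LSK replicate 4 and the 2 ranges overlapped. For position in a list, peaks were ranked by the fold of the summit against the background around it, with rank 1 at the top. Tgfb1 ranked 1128.5, 1140 and 6900.5 in HFD-LSK and 2133.5, 880.5, 1940.5 and 5239.5 in LFD-LSK. The low places were in HFD-LSK replicate 3, where its summit had a background of 2.00 fragments, and in LFD-LSK replicate 4. The diets differed by 508 ranks (mean 3056 ± 3329, SD, n = 3, against 2549 ± 1877, n = 4), less than the spread within either diet (exact permutation test, two-sided, p = 0.743; smallest possible, 0.0286).

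Tgfbr1 (chr4:47353222-47414926, plus strand), the type I receptor gene, stood highest of the set by its median place. Its fold rank was 60, 21.5, 301.5 and 943 in LFD-LSK replicates 1 to 4. In HFD-LSK it was 125.5, 2179 and 11194.5, the last of these 93.5% of the way down a list of 11977 peaks. That summit, in HFD-LSK replicate 3, had 32 fragments over a background of 6.0, whereas the background at Tgfbr1 was 0.0205 to 0.568 in the other 6 lists. By fragments alone the same peak ranked 400, within the top 3.34% of its list. Summit fragments at Tgfbr1 were 91, 86 and 32 in HFD-LSK and 103, 84, 36 and 29 in LFD-LSK. They placed it between 0.530% and 15.7% of the way down every list.

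The fold rank of Tgfbr1 was on average 4168 farther from the top in HFD-LSK (4500 ± 5888, n = 3) than in LFD-LSK (332 ± 426, n = 4). The exact permutation test gave p = 0.0857 and 0.792 after Benjamini-Hochberg adjustment over all 4332 genes called in all 7 lists. The difference fell to 821 without HFD-LSK replicate 3 (exact permutation p = 0.267), and HFD-LSK replicate 1 overlapped the LFD-LSK range. Ranked by summit fragments, a count from which no background is subtracted, the difference was 44.5 ranks (exact permutation p = 0.8). Tgfbr1 peaks were compact and nearly centered on the start, with widths of 1323, 2400 and 1194 bp in HFD-LSK and 1191, 1572, 1460 and 670 bp in LFD-LSK. The width difference of 416 bp was within the spread (exact permutation p = 0.457).

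Tgfbr2 (chr9:116087695-116175363, minus strand), the ligand-binding type II receptor gene, lay lower. It ranked 7391.5, 1658 and 5458.5 by fold in HFD-LSK and 3966, 561 and 2608 in LFD-LSK replicates 1 to 3. Replicates of the same diet differed more than the diets did, and replicate 2 held the best place in each diet. Its summit lay 252 to 566 bp inside the gene in all 6 lists that called it. Summit fragments were 42, 65 and 24 in HFD-LSK and 50, 56 and 24 in LFD-LSK, below those of Tgfbr1 in all 6 lists. Peak widths of 994, 1973 and 1384 bp in HFD-LSK and 997, 1791 and 1136 bp in LFD-LSK overlapped as well.

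The receptors could be compared within each list, where depth and list length are the same for both genes. Only lists that called both genes of a pair entered, so LFD-LSK replicate 4 was left out of all 4 pairs. That list called Tgfbr1, Smad2, Smad1 and Smad7 but not Tgfbr2, Smad3, Smad5 or Smad6. By fold rank as percent of the list, Tgfbr1 was nearer the top than Tgfbr2 in 4 of 6 lists, with a mean difference of -17.8 percentage points (SD 44.6, lowest -79.1, highest 47.9). Leaving out replicate 1 of HFD-LSK gave -5.59, replicate 1 of LFD-LSK -10.9 and replicate 3 of HFD-LSK -31.0. An exact sign-flip permutation test over the 6 lists gave p = 0.3125 and 0.417 after adjustment over the 4 gene pairs tested. By summit fragments, a ranking of the pairs added after the data had been seen, Tgfbr1 was nearer the top in 6 of 6 lists by -25.8 points (SD 16.8). The exact p of 0.03125 is the smallest that 6 lists allow, and it was 0.125 after adjustment.

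**Figure D2:**
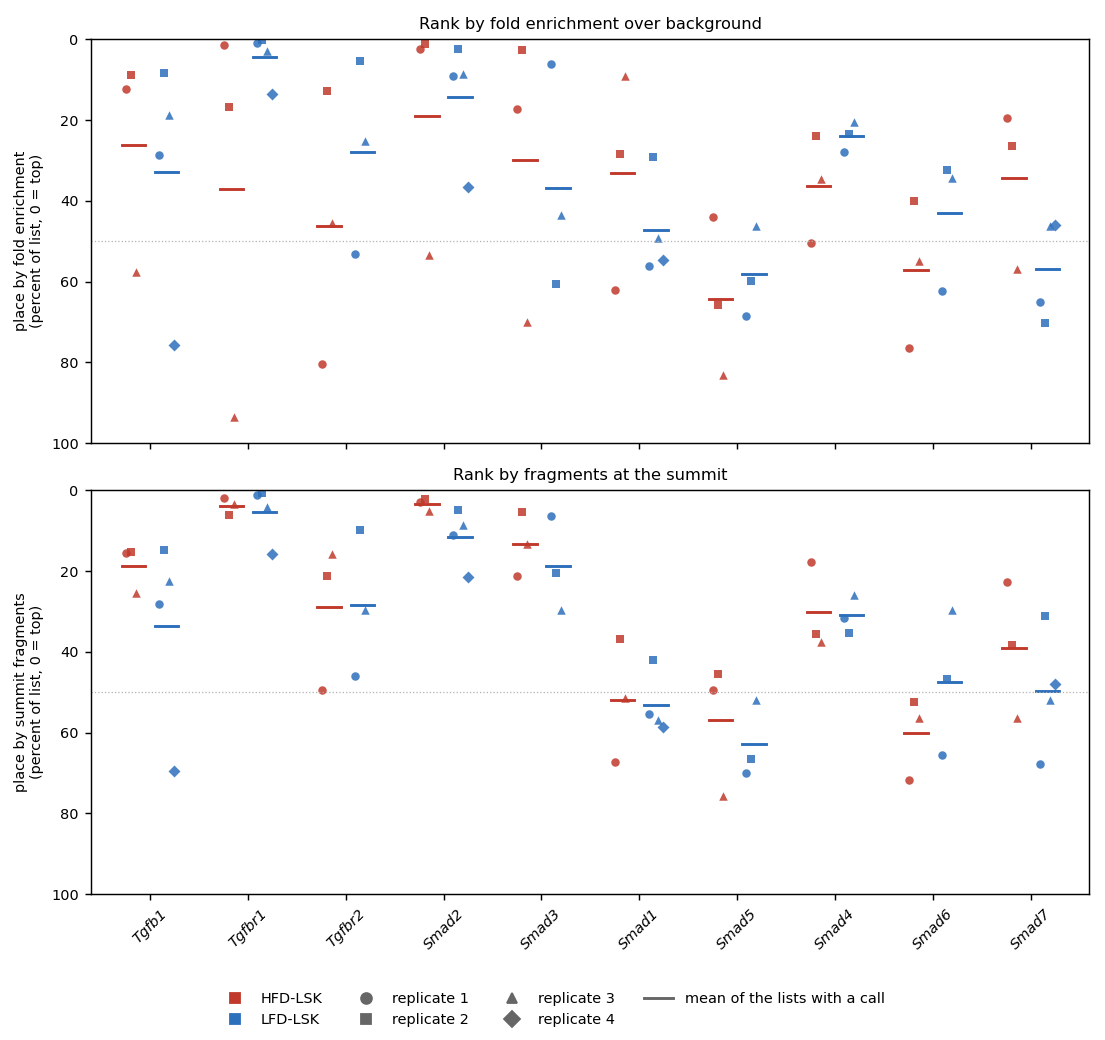
Place of each gene in each list, as percent of the list's length with the top at 0 (y axis), by fold enrichment (upper) and by summit fragments (lower), for HFD-LSK (red) and LFD-LSK (blue); symbols are replicates and bars the mean of the lists with a call. Tgfbr1 in HFD-LSK replicate 3 sits at 93.5% by fold and at 3.34% by fragments, and the diets overlap for every gene in both panels.

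Smad2 and Smad3 carry the TGF-β signal from the receptor. Smad2 (chr18:76241090-76311748, plus strand) ranked 219, 135.5 and 6385.5 by fold in HFD-LSK and 681, 244.5, 889 and 2536.5 in LFD-LSK. HFD-LSK replicate 3 was again low by fold, with 30 fragments over a background of 3.00, and stood at 5.13% of its list by fragments. By fragments the HFD-LSK lists placed Smad2 at 2.21% to 5.13% and the LFD-LSK lists at 4.92% to 21.5%, ranges that overlap. The difference in mean fold rank was 1159 (exact permutation p = 0.714), and it was -540 by fragment rank (exact permutation p = 0.0857). Its width was even from list to list, 1786, 1973 and 1584 bp in HFD-LSK and 1520, 1937 and 1747 bp in LFD-LSK replicates 1 to 3, with 483 bp in replicate 4.

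Smad3 (chr9:63646766-63757994, minus strand) had broader peaks that varied more in rank. It ranked 1571.5, 352 and 8395.5 in HFD-LSK and 454, 6411 and 4500.5 in LFD-LSK replicates 1 to 3. Its lowest places by percent, 70.1% in HFD-LSK replicate 3 and 60.6% in LFD-LSK replicate 2, came with backgrounds of 3.00 and 1.00 fragments. By fragments those peaks stood at 13.3% and 20.4%. Smad3 widths were 2242, 3443 and 2539 bp in HFD-LSK and 631, 2729 and 2760 bp in LFD-LSK, so only LFD-LSK replicate 1 had a peak under 2242 bp among the 6. Within lists Smad2 was nearer the top than Smad3 in 5 of 6, by -20.6 percentage points (SD 22.8; exact sign-flip permutation p = 0.09375, adjusted 0.375), whereas Smad3 had the wider peak in 5 of 6.

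Smad1 and Smad5 serve the bone morphogenetic protein receptors and lay in the middle of the lists. Smad1 (chr8:79338395-79399428, minus strand) ranked 5705.5, 3703 and 1091.5 in HFD-LSK and 4185, 3077.5, 5099 and 3784.5 in LFD-LSK. In HFD-LSK replicate 3 it had the lowest background of the 10 genes (0.106 fragments, against 1.00 to 6.0 at the others) and the best fold rank. With 15 fragments it stood at 9.11% of that list by fold and at 51.3% by fragments. The mean fold rank was nearer the top in HFD-LSK (3500 ± 2314, SD, n = 3) than in LFD-LSK (4037 ± 843, n = 4), a difference within the spread (exact permutation p = 0.743). Widths of 1640, 2099 and 1381 bp in HFD-LSK and 364, 1735, 1454 and 1107 bp in LFD-LSK overlapped.

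Smad5 (chr13:56703010-56742378, plus strand) was the lowest of the 10, with a median of 62.8% of the list. Its fold ranks were 4050.5, 8622 and 9962.5 in HFD-LSK and 5109, 6319.5 and 4791 in LFD-LSK replicates 1 to 3. The HFD-LSK lists lay on both sides of the LFD-LSK lists. Its summit of 10 fragments in HFD-LSK replicate 3 was the smallest of the 65 peaks. Smad5 peaks reached farther into the gene than upstream in all 6 lists and measured 785, 1926 and 590 bp in HFD-LSK and 1007, 1735 and 715 bp in LFD-LSK. Smad1 was nearer the top than Smad5 in 4 of 6 lists, by -22.3 points (SD 32.7; exact sign-flip permutation p = 0.1875, adjusted 0.375).

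Smad4 (chr18:73634790-73703791, minus strand) encodes the partner shared by both branches. Its ranks were 4624, 3128 and 4129 in HFD-LSK and 2075, 2464 and 2128 in LFD-LSK replicates 1 to 3, so in these 6 lists each HFD-LSK rank was farther from the top. As percent of list length the diets overlapped, at 50.3%, 23.9% and 34.5% in HFD-LSK and 27.9%, 23.3% and 20.6% in LFD-LSK. Smad4 had no call in LFD-LSK replicate 4, and the 3 lists against 3 gave an exact permutation p of 0.1, the smallest they allow. Ranked just after the last peak in LFD-LSK replicate 4, Smad4 differed by 563 in place of 1738 (exact permutation p = 0.8). Ranks are counted over lists of different lengths, up to 13094 peaks in HFD-LSK and up to 10572 in LFD-LSK. Smad4 widths were moderate, 791, 1716 and 1036 bp in HFD-LSK and 922, 1237 and 1108 bp in LFD-LSK.

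The peaks of the inhibitory SMADs reached farther upstream, which was described but not tested. Over the set, 52 of 65 peaks reached farther into the gene than upstream of it, and 45 of 65 summits lay inside the gene. Smad6 and Smad7 went the other way in 4 of 6 and 4 of 7 lists, with a median upstream reach of 892 bp and 968 bp. The other 8 genes had medians from 56.5 bp (Smad5) to 635 bp (Tgfbr1). Only the strongest peak of each window was measured. In the 4 Smad7 lists that went the other way, a further peak lay inside the gene within 5 kb of the start. Of the 4 such Smad6 lists, this held in HFD-LSK replicates 1 and 3 and LFD-LSK replicate 3, but not in LFD-LSK replicate 1. Smad6 (chr9:63953076-64022085, minus strand) had its summit upstream of the start in 5 of 6 lists, as far as 599 bp. Summits also lay upstream in 4 of 7 lists at Smad7, 5 of 7 at Tgfbr1 and 4 of 6 at Smad4.

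Smad6 ranked 7025, 5233.5 and 6559.5 in HFD-LSK and 4648.5, 3411.5 and 3554 in LFD-LSK replicates 1 to 3, apart in these 6 lists. As with Smad4, the percent of list length overlapped (40.0% to 76.5% in HFD-LSK, 32.3% to 62.4% in LFD-LSK). The exact permutation p was 0.1 over the 6 lists, the smallest possible, and 0.143 for a difference of 1639 with the gene ranked just after the last peak of LFD-LSK replicate 4. Smad6 widths fell into long peaks in replicate 2 of each diet, 3289 bp in HFD-LSK and 3050 bp in LFD-LSK, and peaks of 884 to 981 bp in the other 4 lists. Replicate 2 also had the largest median width of its diet, 1198 bp in HFD-LSK and 961 bp in LFD-LSK.

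Smad7 (chr18:75367365-75395935, plus strand) had the widest peak of the 10 genes in 3 lists, replicate 2 of each diet and HFD-LSK replicate 1. Its widths were 2986, 6143 and 513 bp in HFD-LSK and 1518, 4517, 1663 and 223 bp in LFD-LSK. In replicate 2 of HFD-LSK and LFD-LSK its peak was the 14th and the 6th widest of its whole list. The short values came from lists where the marked stretch was split. In HFD-LSK replicate 3 a 513 bp peak lay upstream of the start and a separate peak of 2183 bp followed inside the gene. All peaks within 5 kb of the start together covered 3955, 6065 and 2696 bp in HFD-LSK and 3416, 4873, 3732 and 859 bp in LFD-LSK, a measure added after the data had been seen. Its median of 3732 bp was the highest of the 10, followed by Smad3 (3061 bp) and Tgfb1 (2572 bp).

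Smad7 stood near the middle of the lists in rank. Its fold ranks were 1783, 3470.5 and 6800.5 in HFD-LSK and 4843.5, 7426.5, 4791 and 3173.5 in LFD-LSK, with 14 to 57 fragments at the summit. The mean difference of -1041 ranks (4018 ± 2553, SD, n = 3, in HFD-LSK against 5059 ± 1759, n = 4, in LFD-LSK) was within the spread (exact permutation p = 0.543). The width difference of 1234 bp was within it too (exact permutation p = 0.514). Within lists the place of Smad6 minus that of Smad7 averaged 2.66 percentage points (SD 31.6; exact sign-flip permutation p = 0.844). The 6 lists ran from -38.0 to 57.1 points, and Smad6 was nearer the top in 4 of them.

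**Figure D3:**
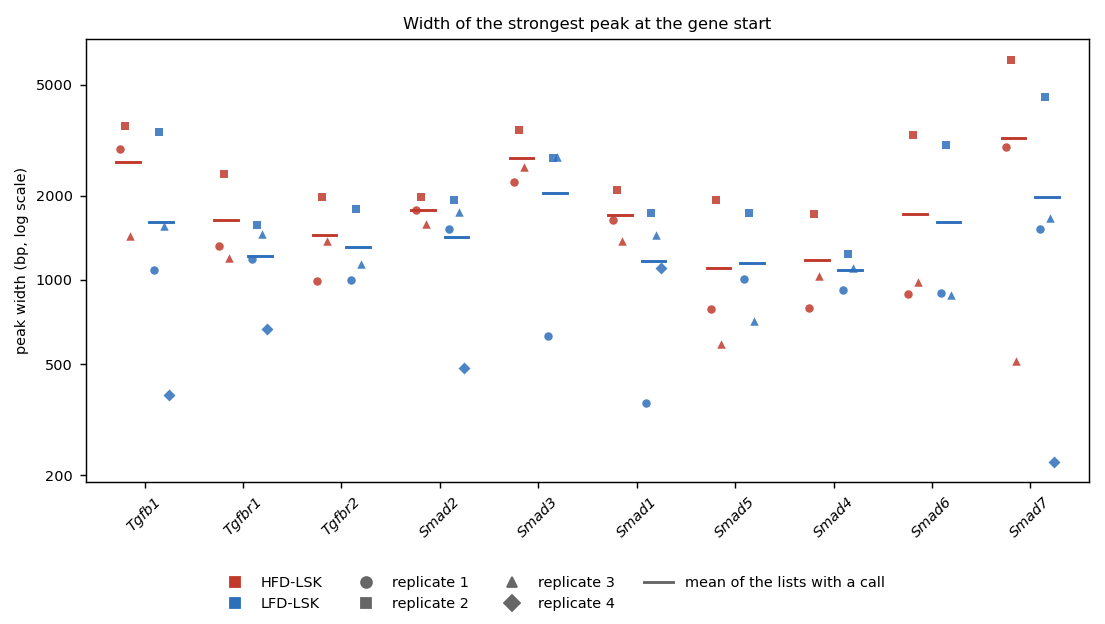
Width of the strongest peak at each gene start (y axis, bp on a log scale) in HFD-LSK (red) and LFD-LSK (blue), with symbols for replicates and bars for the mean of the lists with a call. Smad7 spans 223 to 6143 bp, LFD-LSK replicate 4 gives the narrowest peak at 4 of the 5 genes it called, and the diets overlap at every gene.

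The roles were contrasted by the median place of their genes within each list, with no test because the genes were chosen together. Receptors stood at a median of 14.7% of the list (2.75% to 69.5% over the 7 lists), activating SMADs at 43.5% (23.9% to 53.3%) and inhibitory SMADs at 47.9% (33.2% to 63.7%). Receptors were nearer the top than activating SMADs in 6 of 7 lists and nearer than inhibitory SMADs in 6 of 7. The exception in both was HFD-LSK replicate 3. Activating SMADs were nearer the top than inhibitory SMADs in 6 of 7 lists, with a median difference of -3.85 percentage points and -35.9 to 3.17 over the lists. By summit fragments receptors came before inhibitory SMADs in 7 of 7 lists and before activating SMADs in 6 of 7, with HFD-LSK replicate 1 as the exception. The receptor median rests on Tgfbr1 and Tgfbr2, which were far apart, and on Tgfbr1 alone in LFD-LSK replicate 4. In that list the activating median rested on Smad1 and Smad2 and the inhibitory one on Smad7 alone. By fold these 2 medians stood at 45.7% and 45.9%, close together.

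Single genes did not follow the order of the roles. The median fold place over the lists with a call was 2.91% for Tgfbr1, 8.59% for Smad2, 18.7% for Tgfb1, 25.9% for Smad4, 30.3% for Smad3 and 35.4% for Tgfbr2. Smad7 (46.3%), Smad6 (47.4%), Smad1 (49.3%) and Smad5 (62.8%) followed. Neighbors in this order overlapped in range throughout. Protein-coding genes called in a list had a median place between 39.3% and 44.7% by fold, so the first 6 of the 10 lay above that level and the last 4 below it. That level includes genes called in few lists. Protein-coding genes called in all 7 lists had medians from 21.9% to 37.8%. Against these, Tgfbr1, Smad2 and Tgfb1 lay above the range and Smad4, Smad3 and Tgfbr2 within it.

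**Figure D4:**
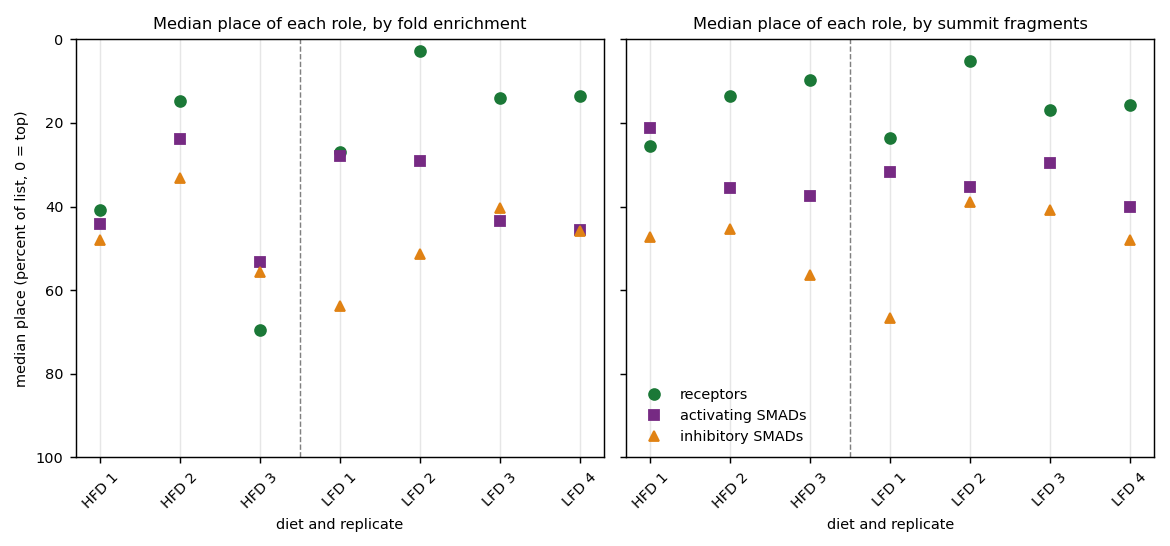
Median place of receptors (circles), activating SMADs (squares) and inhibitory SMADs (triangles) in each list (x axis, diet and replicate), as percent of the list's length with the top at 0 (y axis), by fold enrichment (left) and by summit fragments (right). Receptors lie above the inhibitory SMADs in 6 of 7 lists by fold and in 7 of 7 by fragments, and the list that differs by fold is HFD-LSK replicate 3.

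For the diet comparison over the set, the 5 genes called in all 7 lists could be tested. Of these, 2 (Smad1 and Smad7) had a mean fold rank nearer the top in HFD-LSK and 3 (Tgfb1, Tgfbr1 and Smad2) one farther from it. Their median difference was 508 ranks toward the bottom, compared with 698 over all 4332 genes called in all 7 lists, of which 35.1% were nearer the top in HFD-LSK. At 0 of 5 genes did the ranks of the diets fail to overlap. Over all genes 1.27% ranked nearer the top in each HFD-LSK list and 4.39% farther from it.

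Peaks were wider on average in HFD-LSK at 5 of 5 genes, by a median of 542 bp, and 92.5% of all 4332 genes were also wider there, by a median of 274 bp. Each of the 5 overlapped between the diets. Over all genes 6.69% were wider in each HFD-LSK list than in any LFD-LSK list and 0% narrower. None of the 4332 genes passed adjustment in these exact permutation tests, of rank, with 166 at an unadjusted p under 0.05, or of width, with 160. With a smallest p of 0.0286, at least 2476 genes would have to stand there for any to pass. Fisher's exact test on calls gave 33 at an unadjusted p under 0.05 and also 0 after adjustment.

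The wider pathway was described by 60 further genes. Of these, 19 (31.7%) were called in all 7 lists, against 20.2% of protein-coding genes. In at least 1 list 45 (75%) were called, against 51.3%, and 15 were called in none. Receptors and coreceptors were called in all 7 lists in 7 of 11 cases (Tgfbr3, Eng, Acvr1, Acvr1b, Acvr2a, Acvr2b and Bmpr2). Other signal carriers and inhibitors reached this in 8 of 18 and target genes in 4 of 10. Ligands and the factors that hold or release them outside the cell reached it in 0 of 21, with 9 of them, Tgfb2 and Bmp4 included, in no list. The target genes Id1, Id3 and Cdkn1a also had no peak within 1 kb of the start used here.

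None of the 60 was called in every list of 1 diet and no list of the other (0.3% and 0% of genes called). Calls in 1 or more HFD-LSK lists and no LFD-LSK list were found at 8 of the 45 (17.8%, against 9.08% of genes called). Each of the 8 was called in at most 2 lists. Calls in LFD-LSK lists only were found at 0 (against 1%). Of the 19, 0 had ranks that did not overlap between the diets (1.27% and 4.39% of genes, by direction) and 0 had widths that did not (6.69% and 0%). In HFD-LSK 8 of the 19 had a mean rank nearer the top (42.1%, against 35.1% of all genes) and 18 a wider mean peak (94.7%, against 92.5%). The 3 genes with the widest mean peak among those 19 were named by rule. Klf10, an early TGF-β target, measured 2638, 4012 and 2808 bp in HFD-LSK and 516, 3386, 3686 and 300 bp in LFD-LSK. Skil, which encodes the SMAD corepressor SnoN, measured 2176, 2609 and 1934 bp in HFD-LSK and 2011, 1657, 1927 and 1786 bp in LFD-LSK, with 1 LFD-LSK list above the lowest of HFD-LSK. Bmpr2, a type II receptor of the bone morphogenetic protein branch, measured 1488, 2619 and 1310 bp in HFD-LSK and 1128, 2270, 2023 and 1421 bp in LFD-LSK. All 3 overlapped between the diets.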

How the data were processed

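H3K4me3 peak lists of 3 HFD-LSK and 4 LFD-LSK libraries were analyzed, grouped by their labels. The 7 IgG libraries were not analyzed here. The members and gene lists were chosen with earlier results of these data known.

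The labels name Trim Galore, Bowtie2, Picard, MACS2, bedtools, HOMER, featureCounts and GRCm38, whereas the published methods give GRCm39, and SEACR, with duplicates removed from controls only, which is not known for the deposited run. The deposited lists are in MACS2 format, 1 per library. Every row holds the authors' fold enrichment (a ratio of summit to local background, each plus 1), −log10 p and −log10 q values, and a score, all deposited per peak. Between 70.9% and 82.7% of peaks lay at coding gene starts of GRCm38 and 7.52% to 8.32% at those of GRCm39, so GRCm38 was used. Because fold, p and q are set by each library's own depth and background, they were ranked within lists only.

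Gene starts came from RefSeq GRCm38.p6, with strand from its promoter table (7 members) or by symbol from GENCODE (3 members), for 98.0% of protein-coding genes. The outermost start is used, so a peak at an inner start can be missed. The strongest peak by fold in the window of 1 kb on either side was taken. Summit fragments and background were recovered from fold and p with a scale per library (0.0958 to 0.913, the highest in HFD-LSK replicate 3), at a relative error of 5e-05. All peaks of every list were solved, and 98.1% to 99.99% had 1 solution. They are inferred values, and the background is on the scale of the control library. The fewest fragments that gave a call were 4 to 21, so a gene without a call may still carry the mark. Fragments need not be separate molecules.

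Diets were compared by exact permutation over 35 assignments, two-sided, and by Fisher's exact test. Benjamini-Hochberg adjustment covered 4332 genes called in all 7 lists for rank and width and 10997 genes called in any list for calls. Gene pairs were compared by exact sign flips over lists. The steps were tested on simulated data. The alternatives were a −log10 q of at least 5, equal list lengths, windows of 3 kb and 500 bp, other rankings, other peak choices and widths, the replicate block and each library left out. Promoter windows were shortened to the 250 bases before the start. Named pathway genes were those called in every list of 1 diet and no list of the other and those with ranks or widths that do not overlap (none of either kind), and the 3 with the widest mean peak among those called in all 7 lists. Values of some listed genes are not reported here. Python 3.11.15, numpy 2.4.6, pandas 2.3.3, scipy 1.17.1 and matplotlib 3.10.9 were used.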

Additional observations from a re-analysis of the deposited data

How the results depend on the processing

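The tests have 3 lists against 4. Without an HFD-LSK list the smallest possible exact permutation p is 0.0667, without an LFD-LSK list 0.1 and with the block 0.25, so p-values under these say nothing about stability. Genes called in every list used numbered 5, against 3 with equal list lengths and 10 without LFD-LSK replicate 4, also when LFD-LSK replicate 1 was left out with it (chosen after seeing the data), a range of 5 to 10 when 1 library at a time was left out. Genes with ranks apart between the diets numbered 0, with a range of 0 to 2 when 1 library was left out: 1 without HFD-LSK replicate 1, 1 without HFD-LSK replicate 3 and 2 without LFD-LSK replicate 4.

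Ranks by −log10 p turned the differences of Tgfb1 (-862) and Smad2 (-180), moved Smad2 against Smad3 to -25.9 percentage points (exact permutation p = 0.03125, unadjusted), and turned Smad6 against Smad7 to -0.587. Ranks by summit fragments turned Tgfb1 (-546), Smad2 (-540), Smad1 (1094) and Smad7 (358), and gave -25.8 points for Tgfbr1 against Tgfbr2. Tgfb1 also turned as percent of list length (-6.65) and among genes called in all 7 lists (-358). Among those genes, ranks by fragments gave -436 for Tgfb1, -532 for Smad2 and 354 for Smad1. Width rank turned Tgfbr1 (-134), Tgfbr2 (-447), Smad4 (-1049), Smad6 (-466) and Smad7 (-867). Equal list lengths turned the rank difference of Smad5 (-1356). A −log10 q of at least 5 turned the widths of Tgfbr2 (-13.2) and Smad5 (130.5), and covered length turned that of Smad5 (236). The cause was not tested.

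With 1 library left out, rank differences ran from -1414 (without HFD-LSK replicate 3) to 1472 for Tgfb1, with -48.2 without LFD-LSK replicate 2. They ran from -910.5 (without HFD-LSK replicate 3) to 2214.5 for Smad2, from -1639 to 668 (without HFD-LSK replicate 3) for Smad1, and from -2432 to 76.9 (without HFD-LSK replicate 1) for Smad7. Smad6 against Smad7 ran from -8.22 (without HFD-LSK replicate 1) to 10.8 points, and Smad7 width from -231 (without HFD-LSK replicate 2) to 2584 bp. Smad3 rank ran from -2827 (without HFD-LSK replicate 3) to 1195 (without HFD-LSK replicate 2). Widths also changed sign for Tgfbr2 (-119 to 384 bp), Smad3 (-3.17 to 1061 bp), Smad4 (-175.5 to 287 bp), Smad5 (-465 to 239 bp) and Smad6 (-675 to 829 bp). The replicate block, a mean of differences within replicate numbers 1 to 3, gave 4 genes with ranks of 1 sign in all pairs. Samples sharing a number did not deviate together (correlations 0.0729, 0.0183 and -0.0120 over 4332 genes), so the numbers were not taken as pairs. Of 380 recomputed differences, 338 kept their sign and 42, in 14 of the 24 differences compared, did not.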

Other observations

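Beyond 1 kb of the start, peaks inside the gene were listed at Smad7 in 6 lists, Smad3 in 5, Smad6 in 4, Smad1 in 3 and Tgfb1 in 2, and at Tgfbr1, Tgfbr2, Smad2, Smad4 and Smad5 in 0. The Smad3 peak recurred at the same place, with its summit 2742 to 3184 bp inside the gene in all 3 HFD-LSK lists and 2 of the 4 LFD-LSK lists (replicates 2 and 3). Its summit held 22, 29 and 11 fragments in the HFD-LSK lists and 17 and 13 in the LFD-LSK lists. It was not listed in LFD-LSK replicates 1 and 4, where the fewest fragments at any called summit were 21 and 9. At Smad1 the peak farthest from a start lay 28630 bp inside the gene in HFD-LSK replicate 3 and 28567 bp inside it in LFD-LSK replicate 2, with 10 and 15 fragments.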
